A study of Mus musculus with 6 samples.

Results

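The transcripts described here encode the enzymes that chemically modify and conjugate foreign and endogenous small molecules, measured in whole mouse lung after IL-13 exposure. Members were the genes whose platform symbol begins Cyp, Gst, Ugt, Sult or Fmo followed by a family number or, for Gst, a class letter, with the sterol synthesis enzyme Cyp51 left out. They came to 121 of the 18193 genes that a probe set with a single gene symbol represented, read by 162 such probe sets. Of these genes, 56 belong to cytochrome P450 families 1 to 4, 16 to other P450 families, 21 to the glutathione transferases (Gst), 11 to the UDP-glycosyltransferases (Ugt), 13 to the sulfotransferases (Sult) and 4 to the flavin monooxygenases (Fmo).

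The study hybridised 6 arrays, 2 for each of 3 genotypes, and every array carried RNA pooled from the lungs of 4 adult BALB/c mice. The genotypes were IL4R knockout (-/-) mice hemizygous (+/-) for the SMP8-IL4R transgene, written IL4R KO + SMP8-IL4R and called transgenic below, IL4R knockout (IL4R KO) mice without it, and wild type (WT) mice. The SMP8 promoter, called specific to smooth muscle by the submitters, drives the transgene, so that by the design the transgenic lungs lack the receptor elsewhere. All 3 groups received 2 to 3 µg of IL-13 into the trachea once a day for 7 days, with lungs taken 24 h after the last dose, and no lungs without IL-13 were analysed here. The receptor subunit encoded by Il4ra carries the IL-13 signal, so the knockout lungs show transcript levels under IL-13 without that receptor, and the transgenic lungs show them with the receptor restored in smooth muscle.

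P450 enzymes, which are haem proteins fed with electrons by a reductase, and flavin monooxygenases introduce oxygen into lipophilic compounds. Glutathione transferases, UDP-glycosyltransferases and sulfotransferases then attach glutathione, a sugar or sulfate, which makes the products water soluble and ready for export. The liver is the richest source of most of these enzymes, while in mouse lung the club cells of the airway epithelium hold their own set, of which Cyp2f2 and Cyp4b1 are the best known.

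Values are log2 intensities after RMA, and no level of a probe set is set against that of another. The Il4ra probe set had 9.98 and 9.84 in transgenic pools, 9.35 and 9.55 in IL4R KO pools, and 9.64 and 9.81 in WT pools. The 3 groups did not overlap, and none of the 3 differences passed the test (IL4R KO minus WT, -0.28, adjusted p = 0.194). Where this probe set lies relative to the deleted part of the gene is not given in the sources used here, so it does not check the labels. Of the 6 arrays, 2 stood apart by the hepatocyte transcript albumin (Alb), at 12.26 for pool 1 of IL4R KO and 11.81 for pool 2 of WT, against 5.68 to 5.93 in the other 4 arrays. Every result below that rests on these arrays is given with them named.

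Testing was limited to genes with a value over 7.10, the median of the whole table, on 2 or more of the arrays, and 11860 genes met this, 54 of the 121 members among them. A difference passed at an adjusted p under 0.05 in limma's moderated test with Benjamini-Hochberg adjustment over all genes tested, and every adjusted p below comes from this fit unless another is named. The tested share was uneven among the classes, at 19 of 21 glutathione transferases, 3 of 4 flavin monooxygenases and 22 of 56 genes of P450 families 1 to 4. Few of the other conjugating enzymes were tested, at 3 of 13 sulfotransferases and 1 of 11 UDP-glycosyltransferases. Of the 54 tested members, 41 exceeded that median on all 6 arrays, 8 on exactly 2, and 45 of the 121 had a mean below 5.30, the lower quartile.

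The members fell into those that followed Alb over the 6 arrays and those that did not. A member was said to follow Alb if its Pearson r with Alb was at least 0.9 and if the lower of its values in the 2 arrays high in Alb exceeded its highest value elsewhere by at least 0.5 (log2), a distance called the gap here. By this rule 21 members followed Alb and 100 did not. The 21 were 13 genes of P450 families 1 to 4, 7 UDP-glycosyltransferases and 1 sulfotransferase, with 0 of 21 glutathione transferases, 0 of 16 other P450s and 0 of 4 flavin monooxygenases among them.

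**Figure D1:**
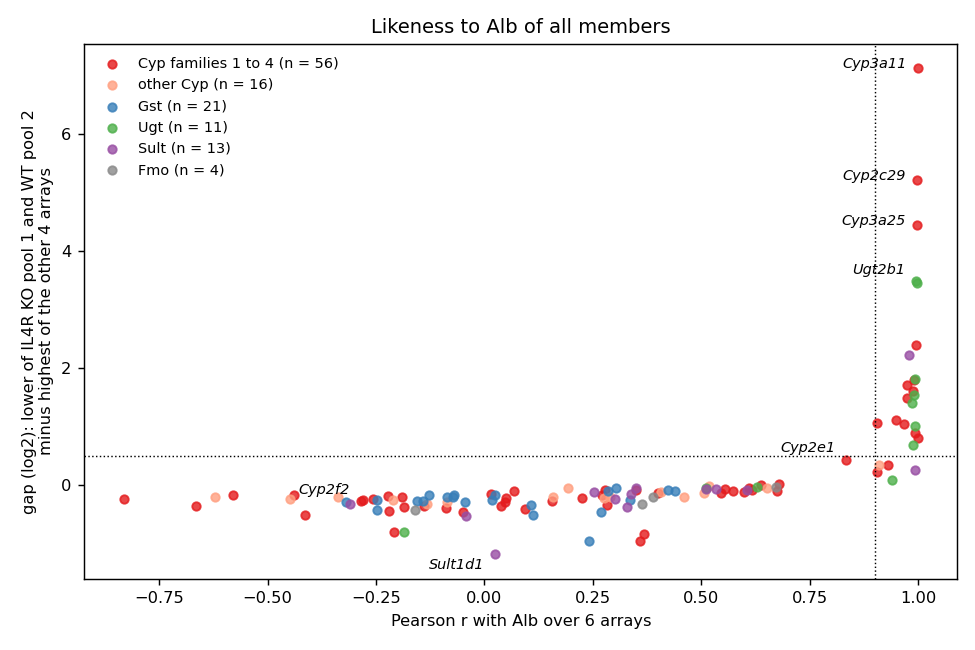
Pearson r with Alb over the 6 arrays (horizontal axis) against the gap in log2 units (vertical axis) for the 121 member genes, with the limits of 0.9 and 0.5 drawn as lines. The 21 members past both limits sit in the upper right corner, with Cyp3a11 at a gap of 7.12, and Cyp2f2 lies on the far side of both limits.

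The promoters of 4 members that the results turn on are shown as RefSeq gives them on GRCm38.p6, each as the 250 bases before the annotated start, 5' to 3' on the strand of the gene. Sult1d1 (chr5:87569007-87569256, minus strand) showed the largest called difference between genotypes. Cyp1a1 (chr9:57697363-57697612, plus strand) and Cyp1a2 (chr9:57683656-57683905, minus strand) are neighbouring P450 genes, of which only Cyp1a2 followed Alb. Cyp3a11 (chr5:145879855-145880104, minus strand) had the widest gap. Capitals mark matches to 6 short motifs searched on both strands, which were TTC and GAA with 4 bases between them (STAT6), GCGTG (the core of the xenobiotic response element bound by the aryl hydrocarbon receptor), TGACNNNGC (antioxidant response element), GTTAAT (HNF1), CAAAGTCC (HNF4) and TTGCNNAA (C/EBP).
Sult1d1: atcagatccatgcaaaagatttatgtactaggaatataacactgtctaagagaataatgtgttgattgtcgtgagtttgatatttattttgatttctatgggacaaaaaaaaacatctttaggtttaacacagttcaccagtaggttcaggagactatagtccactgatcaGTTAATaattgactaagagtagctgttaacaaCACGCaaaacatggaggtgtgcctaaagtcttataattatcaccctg
Cyp1a1: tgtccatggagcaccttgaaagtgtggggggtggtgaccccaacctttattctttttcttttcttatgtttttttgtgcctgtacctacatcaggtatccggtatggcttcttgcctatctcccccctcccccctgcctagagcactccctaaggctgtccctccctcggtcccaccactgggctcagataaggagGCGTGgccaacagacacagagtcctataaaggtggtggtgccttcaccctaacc
Cyp1a2: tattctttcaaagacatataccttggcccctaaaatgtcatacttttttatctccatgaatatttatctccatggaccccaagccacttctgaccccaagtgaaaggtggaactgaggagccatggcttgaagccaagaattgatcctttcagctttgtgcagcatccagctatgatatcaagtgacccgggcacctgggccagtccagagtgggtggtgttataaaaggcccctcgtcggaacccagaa
Cyp3a11: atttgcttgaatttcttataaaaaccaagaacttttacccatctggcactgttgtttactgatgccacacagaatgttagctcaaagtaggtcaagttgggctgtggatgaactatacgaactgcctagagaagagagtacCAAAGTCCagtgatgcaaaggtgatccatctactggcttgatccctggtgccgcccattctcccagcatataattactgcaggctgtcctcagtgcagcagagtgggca
The Cyp1a1 window held GCGTG at -54 to -50 from the start, and the Sult1d1 window held its reverse complement CACGC at -47 to -43 and GTTAAT at -79 to -74. The Cyp3a11 window held CAAAGTCC at -109 to -102, the Cyp1a2 window held no match, and no matches overlapped. A match is a run of letters, not a shown binding site.

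Over all 27025 genes with a promoter in the RefSeq table, windows of this length held GCGTG in 28.2% and the STAT6 motif in 5.86%. A promoter was found for 94 of the 121 members. GCGTG occurred in 0 of 18 members that follow Alb, in 20 of 76 that do not (26.3%) and in 3 of the 8 with a promoter that differed between IL4R KO and WT lungs. The STAT6 motif occurred in 0 of 18, 5 of 76 and 1 of 8 of the same sets. CAAAGTCC was found in 2 of 18 and 5 of 76 members against 1.22% of all genes, TTGCNNAA in 4 of 18 and 13 of 76 against 9.55%, GTTAAT in 2 of 18 and 5 of 76 against 6.52%, and TGACNNNGC in 0 of 18 and 4 of 76 against 10.1%. These shares describe the windows and were not tested.

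Several members are known for work outside detoxification, and most of these were dim. The steroid-making P450s Cyp11a1, Cyp11b1, Cyp11b2, Cyp17a1 and Cyp21a1 had values of 4.72 to 7.12 over the 6 arrays and were not tested. Also too dim to be tested were Cyp24a1 and Cyp27b1, which break down and activate vitamin D, at 3.85 to 6.11, and Cyp7a1, the rate-limiting enzyme of bile acid synthesis, at 5.44 to 5.85. Cyp26b1, Cyp26a1 and Cyp7b1, which clear retinoic acid and oxysterols, were tested. Cyp7b1 had 8.61 and 8.48 in transgenic pools, 8.41 and 7.97 in IL4R KO pools, and 8.34 and 8.57 in WT pools, with IL4R KO pool 2, the pool low in Y-linked transcripts, the lowest. Cyp7b1 is male-biased in mouse liver and did not follow Alb (r = 0.29).

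The first comparison was of IL4R KO with WT lungs, and so of receptor loss under IL-13. Of the 54 members tested, 9 passed (16.7%), against 4.7% of all genes tested. Higher in IL4R KO lungs were 7 of them, where 1.92% of all genes were, the sulfotransferase Sult1d1, the P450s Cyp2d22 and Cyp4b1, the glutathione transferases Gsta3, Gstz1 and Gstm1, and the monooxygenase Fmo5. Lower were 2, where 2.77% of all genes were, the P450 Cyp1a1 and the glutathione transferase Gsto1. All 9 were members that do not follow Alb. This was nearly fixed by the rule, which needs high and low pools within both of these genotypes. In each of the 9 the 2 pools of one genotype lay on one side of the 2 pools of the other. The same held for 51.6% of all genes tested, and with 2 pools a group a small p makes it likely. In pooled whole lung RNA, fewer cells of a type and less RNA per cell cannot be told apart.

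**Figure D2:**
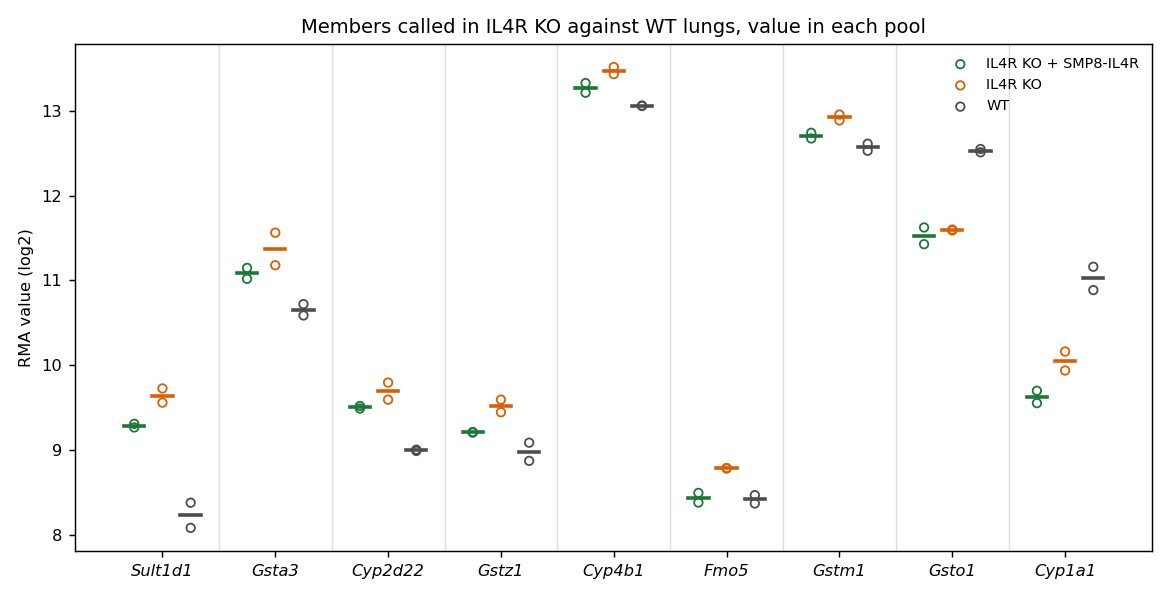
Log2 intensity of the 9 members that passed in IL4R KO against WT lungs, 1 point per RNA pool, with the groups in the order IL4R KO + SMP8-IL4R, IL4R KO and WT and bars at the group means. Sult1d1 is lowest in both WT pools and Gsto1 and Cyp1a1 are highest in both WT pools.

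Among the sulfotransferases, Sult1d1, which in mouse sulfates small phenols and catecholamines, had 9.73 and 9.56 in IL4R KO pools and 8.08 and 8.38 in WT pools. Both IL4R KO pools were well above both WT pools, with no overlap. The difference was 1.41 ± 0.11 (SE, n = 2 pools a group), a 2.66-fold higher value, with an adjusted p of 0.00291 in limma. A further Sult1d1 probe set had 8.13 and 8.06 in IL4R KO pools against 6.28 and 6.34 in WT pools, a difference of 1.79 (adjusted p over all probe sets = 0.000189). Sult1a1, a phenol sulfotransferase, had 10.54 and 10.04 in IL4R KO pools and 9.53 and 9.68 in WT pools, and its difference of 0.68 did not pass (adjusted p = 0.0811). Its IL4R KO pool 1, one of the 2 arrays high in Alb, was the highest of the 6. Sult5a1 had 8.35 and 8.05 in IL4R KO pools against 8.05 and 8.31 in WT pools, so that the groups overlapped.

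Cyp1a1, which oxidises polycyclic aromatic hydrocarbons and is the classical target of the aryl hydrocarbon receptor, had 9.94 and 10.16 in IL4R KO pools and 10.89 and 11.16 in WT pools. Both IL4R KO pools lay below both WT pools, and the level was 0.509 times that of WT (-0.97 ± 0.12, SE, adjusted p = 0.0149). The related Cyp1b1 had 8.15 and 7.90 in IL4R KO pools against 8.0 and 7.87 in WT pools, which overlapped. Ahr itself, the receptor, had a difference of -0.58 that did not pass (adjusted p = 0.124).

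Cyp2d22, a P450 of the drug-oxidising Cyp2d subfamily, had 9.59 and 9.80 in IL4R KO pools and 8.99 and 9.0 in WT pools. The WT pools were nearly equal and both below the IL4R KO pools, for a difference of 0.70 ± 0.08 (SE, adjusted p = 0.0111). Its other probe set gave 0.53, which did not pass (adjusted p over all probe sets = 0.0652). Cyp4b1, which oxidises fatty acids and activates furan toxins in club cells, had 13.43 and 13.52 in IL4R KO pools and 13.06 and 13.06 in WT pools. Its groups were also apart, and the rise was small, 1.33-fold (0.41 ± 0.07, SE, adjusted p = 0.0325).

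Cyp2f2, the club cell P450 that activates naphthalene, had 14.24 and 14.27 in IL4R KO pools and 14.10 and 14.02 in WT pools. The IL4R KO pools were both higher, and the difference of 0.20 did not pass (adjusted p = 0.197). Cyp2b10, a P450 induced through the constitutive androstane receptor, had 12.36 and 12.29 in IL4R KO pools and 12.10 and 12.16 in WT pools, a difference of 0.20 that did not pass either (adjusted p = 0.193). In both genes the IL4R KO pools lay above the WT pools. The 3 Cyp2b10 probe sets gave 0.20 to 0.41, and none passed over all probe sets (adjusted p = 0.0764 to 0.312). Cyp2s1, a P450 of epithelia, had 11.54 and 11.72 in IL4R KO pools against 11.45 and 11.36 in WT pools (0.23, adjusted p = 0.202).

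Cyp4f18, a P450 of myeloid cells that inactivates leukotriene B in mouse, had 8.44 and 7.48 in IL4R KO pools and 7.0 and 7.25 in WT pools, with 8.08 and 7.31 in transgenic pools. The IL4R KO pools and the transgenic pools each spanned a wide range, and the difference of 0.84 between IL4R KO and WT lungs did not pass (adjusted p = 0.255).

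Cyp2e1, which oxidises ethanol and other small solvents, had 12.28 and 10.70 in IL4R KO pools and 9.55 and 11.14 in WT pools. The groups overlapped, with IL4R KO pool 1 and WT pool 2, the arrays high in Alb, the highest of their groups, and the difference of 1.14 did not pass (adjusted p = 0.366). Its r with Alb was 0.83 and its gap 0.44, just outside the rule. Unlike the members that follow Alb it was also bright in the other 4 arrays, at 9.55 to 10.70.

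The glutathione transferases held 4 of the 9 calls. Gsto1, an omega class enzyme that reduces dehydroascorbate, had 11.60 and 11.59 in IL4R KO pools and 12.55 and 12.51 in WT pools. The pools of each group were nearly equal and the groups far apart, with the IL4R KO level 0.523 times that of WT (-0.94 ± 0.08, SE, adjusted p = 0.00364). Its other probe set gave -0.96 (adjusted p over all probe sets = 0.00255). Gstz1, which isomerises maleylacetoacetate in tyrosine breakdown, had 9.45 and 9.59 in IL4R KO pools and 8.87 and 9.09 in WT pools (0.54 ± 0.09, SE, adjusted p = 0.0365).

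Gsta3, an alpha class enzyme that in mouse conjugates the aflatoxin epoxide, had 11.56 and 11.18 in IL4R KO pools and 10.59 and 10.72 in WT pools. Its IL4R KO pools differed from each other by more than the WT pools did, the higher being the one high in Alb. The difference of 0.72 ± 0.14 (SE) passed narrowly (adjusted p = 0.0465). Its other probe set gave 0.48, which did not pass (adjusted p over all probe sets = 0.186). Gstm1, an abundant mu class enzyme, had 12.89 and 12.95 in IL4R KO pools and 12.53 and 12.61 in WT pools (0.35 ± 0.07, SE, adjusted p = 0.0465). Mu class genes are close in sequence, and its probe set can bind several of them. The 4 Gstm1 probe sets gave differences of 0.09 to 0.40, and none passed over all probe sets (adjusted p = 0.0886 to 0.668).

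The remaining 15 glutathione transferases tested did not pass. Gstp1, the pi class enzyme, had 13.22 and 13.20 in IL4R KO pools and 13.03 and 13.11 in WT pools (0.14, adjusted p = 0.252), and Gstm2 had 11.94 and 12.12 against 11.82 and 11.86 (0.19, adjusted p = 0.227). In both the IL4R KO pools were the higher. The theta class Gstt1, Gstt2 and Gstt3, which act on small halogenated compounds, differed by -0.15 to 0.10, and the kappa class Gstk1 of mitochondria and peroxisomes by 0.15 (adjusted p = 0.265). Over the 19 tested, 13 were higher and 6 lower in IL4R KO lungs, with a median difference of 0.10 against 0.02 over all genes tested.

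Fmo5, which inserts oxygen beside carbonyl groups, had 8.79 and 8.78 in IL4R KO pools and 8.37 and 8.47 in WT pools. The groups were apart, and the difference of 0.37 ± 0.07 (SE) was the least certain of the 9 (adjusted p = 0.0488). Its 3 probe sets gave 0.24 to 0.44, and none passed over all probe sets (adjusted p = 0.0886 to 0.239). Fmo2, the main flavin monooxygenase of lung, had 13.01 and 12.77 in IL4R KO pools against 12.70 and 12.71 in WT pools (0.19, adjusted p = 0.334), and Fmo1 had 11.96 and 12.38 against 12.20 and 12.23, which overlapped.

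None of the 6 tested P450s outside families 1 to 4, which handle sterols, bile acids, retinoids and vitamin D, passed. Cyp27a1, a sterol side chain hydroxylase, had 9.71 and 9.66 in IL4R KO pools and 9.27 and 9.46 in WT pools (0.32, adjusted p = 0.113). Cyp39a1, an oxysterol hydroxylase, had 8.74 and 8.68 against 8.57 and 8.48 (0.19, adjusted p = 0.189). Their IL4R KO pools were above their WT pools, while Cyp20a1, a P450 of no established substrate, had 10.45 and 10.41 in IL4R KO pools, just below 10.48 and 10.49 in WT pools.

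Taking all 54 tested members, 39 were higher and 15 lower in IL4R KO than in WT lungs, and the median difference was 0.13 against 0.02 for all genes tested. The 2 genotypes did not overlap in 31 members, 25 of them higher and 6 lower in IL4R KO lungs, which is 57.4% of the members against 51.6% of all genes tested (29.1% higher and 22.5% lower). The share of calls lay further above that of all genes than the share without overlap. At an unadjusted p under 0.05 there were 17 members, 15 higher and 2 lower, while 22.5% of all genes met that limit. Among the 47 tested members that do not follow Alb the median difference was 0.15.

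The calls rested on few pools. Without WT pool 1 the count was 1 member, without WT pool 2 it was 2, and without either transgenic pool it was 4, while the share of all genes called also fell, to 0.927%, 1.01% and 2.53%. Sult1d1 passed under each of 16 other settings, Gsto1 did not without WT pool 1 (adjusted p = 0.0557), and Cyp1a1 and Cyp2d22 did not without either WT pool. Cyp4b1, Gstz1, Gsta3, Gstm1 and Fmo5 lost their call under 7 to 12 of the 16.

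Markers of other cell types moved in the same comparison. The 8 goblet cell transcripts tested were all lower in IL4R KO lungs, with a summed level of 11.4 and 11.2 in IL4R KO pools and 15.06 and 15.04 in WT pools on the log2 scale. The 4 adipocyte transcripts tested were all higher, Adipoq by 1.93, with a summed level of 11.0 and 11.2 in IL4R KO pools and 9.49 and 9.69 in WT pools. Leptin, a further defining adipocyte transcript, was below the lower quartile in every array. Of 6 macrophage transcripts tested, 3 were lower, and the 6 differences ran from -2.33 to 0.11 with a median of -0.63. The summed level of the list, to which the brightest contribute most, was 13.0 and 13.0 in IL4R KO pools and 14.72 and 14.78 in WT pools. Smooth muscle transcripts were lower in 6 of 8 tested, with summed levels of 14.12 and 14.17 in IL4R KO pools and 14.62 and 14.61 in WT pools. Of 6 fibroblast transcripts, 3 were lower and 1, Dcn, was higher. The part of any of these cell types in the differences of the members was not tested.

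Of 9 club cell transcripts tested, 2 were higher and 1 lower in IL4R KO lungs, and the pools did not overlap in 8 of them, 4 in each direction. Their summed level, to which the brightest contribute most, was 16.6 and 16.6 in IL4R KO pools and 16.5 and 16.5 in WT pools, and Scgb1a1, the defining secretoglobin, had 14.66 and 14.67 against 14.75 and 14.71. The higher were Scgb3a2 and Hp (0.54 and 0.38), and the lower was Aldh1a7 (-0.69). The part of club cells in the members' differences was not tested. The 9 ciliated cell transcripts tested held 0 calls.

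Lists of genes that supply or follow these enzymes were set beside them. Of 16 tested genes of glutathione supply and use, 3 were lower in IL4R KO lungs and 0 higher. Gclc, the rate-limiting enzyme of glutathione synthesis, had 11.37 and 10.98 in IL4R KO pools and 12.13 and 12.03 in WT pools (-0.91, adjusted p = 0.0204), and Gsr, which regenerates glutathione, and Chac2, which degrades it, differed by -0.38 and -0.48. Of 17 tested NRF2 target genes outside the members, 3 were lower (Gclc, Gsr and the malic enzyme Me1) and 1 was higher, the epoxide hydrolase Ephx1 (0.54, adjusted p = 0.0286). Ephx1 was also the 1 call among 8 electron donors and partners of the P450s.

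The list of oxidoreductases of aldehydes, quinones and alcohols also held hydrolases such as Pon1 and Ces1f. Of its 27 tested genes, 2 were higher and 2 lower. Pon1, a lactonase, had 11.24 and 11.26 in IL4R KO pools against 9.11 and 9.36 in WT pools, and Aldh1a3, a retinal dehydrogenase, had 5.73 and 5.32 against 8.41 and 8.0. Aldh3a1 was higher (0.88) and Aldh1a7 lower. Among 7 efflux transporters Abcc3, which exports glucuronides, was higher (0.56, adjusted p = 0.0298). None of 11 tested genes of the glucuronide and sulfate donors passed, Tpst2 (0.34, adjusted p = 0.0594) and Gusb (-0.43, adjusted p = 0.0596) being nearest. None of 18 regulators of detoxification genes passed, with Ppara (0.50, adjusted p = 0.0527) and Mafk (0.33, adjusted p = 0.0827) nearest.

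The second comparison, of IL4R KO + SMP8-IL4R with IL4R KO lungs, showed what differed with the receptor in smooth muscle. None of the 54 members passed in limma (0%), where 0.101% of all genes tested did (0.0759% higher and 0.0253% lower). At an unadjusted p under 0.05, where 12.4% of all genes stood, there were 12 members, 11 lower and 1 higher in transgenic lungs. The members with the lowest p were Fmo5, Cyp1a1, Gstz1, Gstm1 and Cyp4f39, all with negative differences. A p that misses the threshold does not show that the groups were alike.

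Fmo5 had 8.38 and 8.50 in transgenic pools, against 8.79 and 8.78 in IL4R KO pools (-0.35 ± 0.07, SE, adjusted p = 0.219). Gstz1 had 9.21 and 9.21 in transgenic pools and 9.45 and 9.59 in IL4R KO pools (-0.31, adjusted p = 0.310). Gstm1 had 12.67 and 12.74 in transgenic pools and 12.89 and 12.95 in IL4R KO pools (-0.21, adjusted p = 0.321). In each the transgenic pools lay below the IL4R KO pools, and for Fmo5 they overlapped the WT pools, at 8.37 and 8.47.

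Cyp1a1 had 9.55 and 9.70 in transgenic pools and 9.94 and 10.16 in IL4R KO pools (-0.42, adjusted p = 0.300), so that its transgenic pools lay further from WT than its IL4R KO pools did. Cyp4f39, a P450 of the fatty acid hydroxylating Cyp4f subfamily, had 6.93 and 6.90 in transgenic pools and 7.11 and 7.37 in IL4R KO pools (-0.32, adjusted p = 0.324). It was tested only because both IL4R KO pools lay above the median of all values, which makes it a member that passed the filter through its high group.

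Of the 54 members, 47 were lower and 7 higher in transgenic than in IL4R KO lungs, with a median difference of -0.17 against -0.0047 for all genes tested. Over the 47 tested members that do not follow Alb, 40 were lower and the median was -0.13. The 2 groups did not overlap in 25 members, 22 lower and 3 higher, which is 46.3% of members against 41.7% of all genes (20.6% lower and 21.1% higher). This comparison and the one before share the IL4R KO pools, so a high value in an IL4R KO pool enters both with opposite sign. The 7 members that were higher in IL4R KO than in WT lungs all had transgenic pools below both IL4R KO pools, with differences of -0.36 to -0.19 between the group means. These 7 were picked by high values in the same IL4R KO pools, which alone makes lower transgenic values likely. None of the 7 passed here, and the share among all genes picked in this way was not computed.

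Among the 4 adipocyte transcripts tested, 2 were lower in transgenic lungs, Adipoq by -1.39 and Cidec by -0.94, with summed levels of 9.99 and 10.05 in transgenic pools against 11.0 and 11.2 in IL4R KO pools. Smooth muscle transcripts, which mark the cells the transgene is aimed at, were higher in transgenic lungs in 4 of 8 tested, with summed levels of 14.78 and 14.83 in transgenic pools against 14.12 and 14.17 in IL4R KO pools. The part of either in the members' differences was not tested. In the 7 pathway lists named above, 0 genes passed, and the lowest p belonged to Aldh1a3 (1.14, adjusted p = 0.185) and Ces1f (-0.92, adjusted p = 0.219). The next by list were Ephx2 (-0.81), Hmox1 (0.76), Chac2 (0.31), Glo1 (-0.30), Ugp2 (0.16), Slc35d1 (0.20), Abcc5 (0.20), Abcb1b (0.24), Ppara (-0.27) and Nfe2l2 (0.15), with Cbr3 (-0.20) and Srxn1 (-0.22) among the NRF2 targets.

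**Figure D3:**
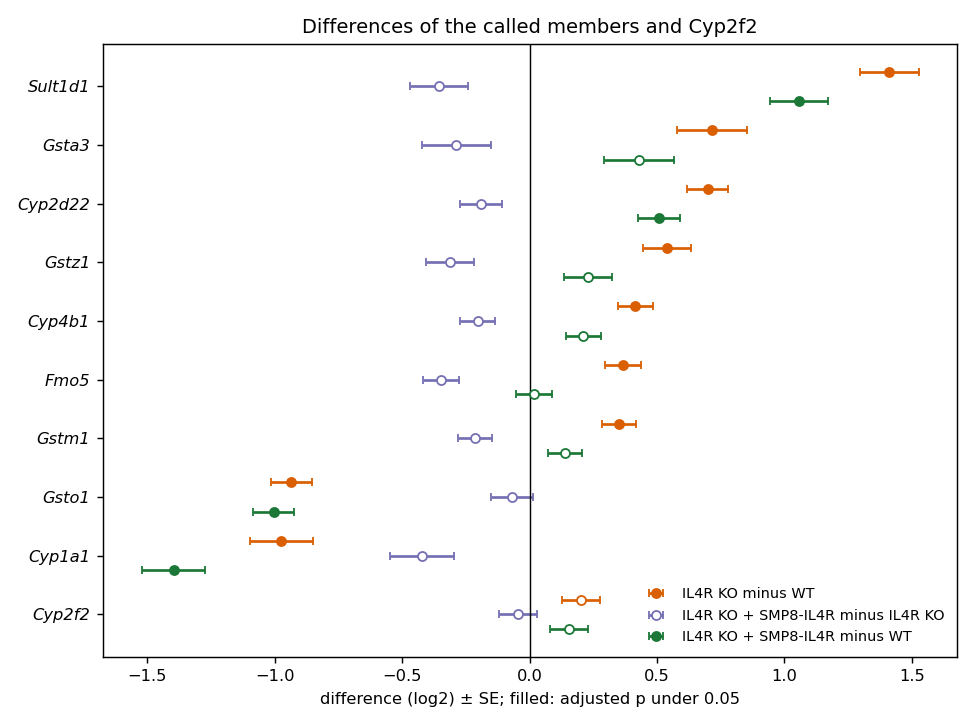
Differences between group means in log2 units for the 9 members that passed in IL4R KO against WT lungs and for Cyp2f2. There is 1 line per gene and 1 symbol per comparison, with filled symbols for adjusted p under 0.05. Most of these genes sit right of 0 for IL4R KO minus WT and left of 0 for IL4R KO + SMP8-IL4R minus IL4R KO. Gsto1 and Cyp1a1 sit left of 0 in each comparison. The genes were chosen by their calls in IL4R KO minus WT, 7 of which were higher, so the picture does not stand for all members.

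The third comparison set IL4R KO + SMP8-IL4R against WT lungs, which by the design differ in the receptor outside smooth muscle. Here 4 of 54 members passed (7.41%), against 2.84% of all genes. Both this count and the share of all genes called moved with the pools left out, and both were lowest without WT pool 1. All 4 were also calls of IL4R KO against WT lungs, with which this comparison shares the WT pools. Gsto1 and Cyp1a1 were lower in transgenic lungs, where 2.15% of all genes were, and Sult1d1 and Cyp2d22 were higher, where 0.691% were.

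Gsto1 had 11.62 and 11.43 in transgenic pools and 12.55 and 12.51 in WT pools, a level of 0.499 times that of WT (-1.0 ± 0.08, SE, adjusted p = 0.00349). Cyp1a1 had 9.55 and 9.70 in transgenic pools and 10.89 and 11.16 in WT pools, a level of 0.38 times that of WT (-1.40 ± 0.12, SE, adjusted p = 0.00525). Both transgenic pools lay below both WT pools in each. The Cyp1a1 call held under each of 16 other settings, and the Gsto1 call was lost without WT pool 1 (adjusted p = 0.0599).

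Sult1d1 had 9.27 and 9.31 in transgenic pools and 8.08 and 8.38 in WT pools, a 2.08-fold higher level (1.06 ± 0.11, SE, adjusted p = 0.00986). Cyp2d22 had 9.49 and 9.52 in transgenic pools and 8.99 and 9.0 in WT pools (0.51 ± 0.08, SE, adjusted p = 0.0363). The groups did not overlap, and these calls were lost under 3 and 6 of 16 settings, among them the loss of either transgenic pool. The next member was Gstp3, with 7.88 and 7.83 in transgenic pools and 8.05 and 8.11 in WT pools, whose difference of -0.23 did not pass (adjusted p = 0.144).

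Of all 54 members, 30 were higher and 24 lower in transgenic than in WT lungs, with a median of 0.03, equal to that of all genes tested at this precision. The groups did not overlap in 34 members (63%), 20 higher and 14 lower, where 61.7% of all genes did not (38.2% higher and 23.6% lower), so this share is near the background. Cyp2f2 had 14.14 and 14.29 in transgenic pools against 14.10 and 14.02 in WT pools (0.16, adjusted p = 0.348). Cyp26b1, which degrades retinoic acid, had 8.11 and 8.11 in transgenic pools against 7.47 and 7.88 in WT pools (0.43, adjusted p = 0.177). Of the pathway lists, glutathione supply held 1 lower gene (Gclc, -0.90). The list of oxidoreductases held 1 higher, the lactonase Pon1 (1.54), and 5 lower (Aldh1a7, Aldh1a3, Cbr3, the hydrolase Ces1f and Aox3). The NRF2 targets held 3 lower (Gclc, Me1 and Cbr3), while the rest held 0 calls. The lowest p among the rest were of Fdx1 (-0.50, adjusted p = 0.0606), Ephx1 (0.36), Tpst2 (0.24), Gusb (-0.27), Abcc3 (0.45), Abcb1b (0.67), Ppara (0.23) and Hnf4a (-0.46). The 8 goblet cell transcripts were all lower in transgenic lungs, with summed levels of 11.1 and 11.1 in transgenic pools against 15.06 and 15.04 in WT pools, and 1 of 4 adipocyte transcripts was higher. Of 6 macrophage transcripts 3 were lower, and the 6 differences ran from -2.05 to 0.19 with a median of -0.66. The summed level of the list, to which the brightest contribute most, was 13.35 and 12.93 in transgenic pools against 14.72 and 14.78 in WT pools. Of 9 club cell transcripts 1 was higher (Scgb3a2) and 2 were lower (Aldh1a7 and Chad), of 8 smooth muscle transcripts 1 was higher (Actg2), and of 6 fibroblast transcripts 1 was lower (Col1a1). The part of these cells in the members' differences was not tested.

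The 21 members that follow Alb formed a separate set. Cyp3a11, the chief drug-oxidising P450 of mouse liver, had 11.50 in pool 1 of IL4R KO and 11.21 in pool 2 of WT, against 3.96 to 4.10 in the other 4 arrays. Cyp2c29, an arachidonic acid and drug oxidase, had 11.47 and 11.17 in those pools against 5.59 to 5.96 elsewhere. Cyp3a25, a relative of Cyp3a11, had 8.94 and 7.94 against 3.38 to 3.50. In each, 1 IL4R KO and 1 WT pool were high while the other pool of the same genotype was as low as the transgenic pools.

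The UDP-glycosyltransferases, many of which attach glucuronic acid to compounds such as steroids and drugs, gave 7 of the 21. The 11 genes counted in this class are those with a probe set of a single symbol, and no Ugt1 gene is among them. The 7 therefore do not stand for all enzymes of this class in the lung. Ugt2b1 had 8.02 in pool 1 of IL4R KO and 7.77 in pool 2 of WT against 3.73 to 4.29 elsewhere, and Ugt2b5 had 7.39 and 7.01 against 3.16 to 3.56. Ugt2b36 had 7.47 and 6.89 against 4.91 to 5.07. The other members of this class that follow Alb were Ugt2b34, Ugt2a3, Ugt2b35 and Ugt3a2, with gaps of 0.68 to 1.53. The 4 that do not follow it, Ugt3a1, Ugt8a (which makes galactosylceramide in myelin rather than glucuronides), Ugt2b37 and Ugt2b38, were not tested, because each was below the median of all values. Ugt8a had 5.45 and 5.25 in transgenic pools, 5.48 and 5.72 in IL4R KO pools and 4.90 and 4.92 in WT pools. Its other probe set went the other way, with 4.92 and 4.94, 4.99 and 4.94, and 5.11 and 5.19 in the same order.

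Sult2a8, a bile acid sulfotransferase of mouse liver, had 7.68 in pool 1 of IL4R KO and 6.49 in pool 2 of WT against 4.07 to 4.27 elsewhere. Cyp2c70, which makes muricholic bile acids, had 7.52 and 7.31 against 5.11 to 5.51. Cyp2d26 had 7.10 and 6.50 against 4.01 to 4.11, and Cyp2j5 had 6.47 and 5.80 against 3.36 to 4.08. Cyp2j5 completes the 10 widest gaps, and Cyp2c50, the next, had 8.34 and 7.68 against 5.96 to 6.06. The remaining P450s that follow Alb were Cyp2d10, Cyp2d9, Cyp4a12a, Cyp1a2, Cyp2a12 and Cyp2c54, with gaps of 0.80 to 1.49.

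**Figure D4:**
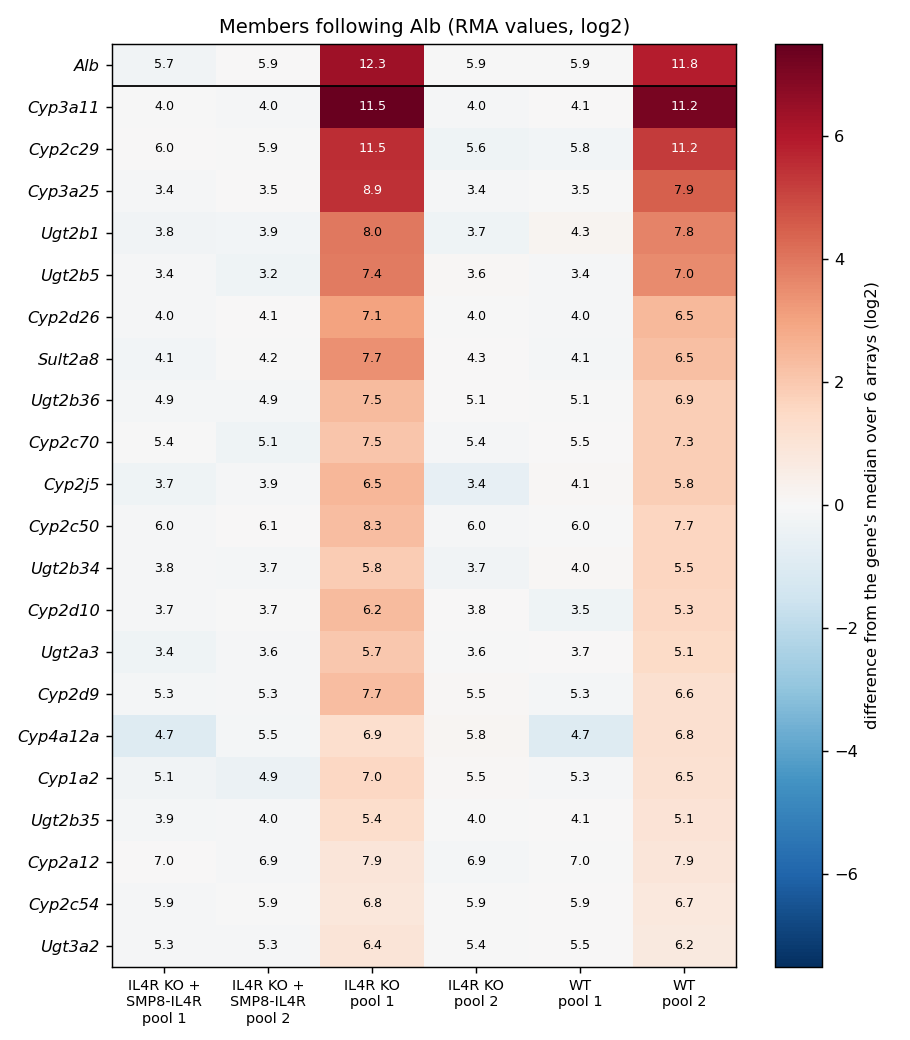
Log2 intensity of Alb and of the 21 members that follow it in each of the 6 arrays, 1 row per gene, with the arrays in the order IL4R KO + SMP8-IL4R, IL4R KO and WT. IL4R KO pool 1 and WT pool 2 are high in every row, and the other 4 arrays are low.

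All 21 were higher in IL4R KO pool 1 than in WT pool 2, by a median of 0.39, as was Alb itself (12.26 and 11.81). In the other 4 arrays all 21 stayed below the median of all values and 12 of them below the lower quartile. The hepatocyte list, which includes Alb itself, behaved likewise. Of its 25 genes that had a probe set, 21 followed Alb, and Alb is 1 of these by definition. Its summed level, Alb included, was 14.6 in pool 1 of IL4R KO and 14.2 in pool 2 of WT against 11.0 to 11.2 elsewhere. The source of these transcripts was not tested.

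The genotype tests made no call in this set. Only 7 of the 21 were tested, and these 7 all passed the filter in exactly 2 arrays, the 2 high in Alb. Cyp3a11 differed by 0.07 between IL4R KO and WT lungs (adjusted p = 0.992), by -3.72 between transgenic and IL4R KO lungs (adjusted p = 0.638) and by -3.65 between transgenic and WT lungs (adjusted p = 0.579). Its SD was 5.33 between the 2 IL4R KO pools, and 0.06 between the 2 transgenic pools, neither of which was high in Alb. Hence the large negative values rest on 1 pool of each other genotype. When both arrays high in Alb were left out, 1 pool each of IL4R KO and WT remained. Part of the 9 calls of IL4R KO against WT lungs was then lost, and the 4 of transgenic against WT lungs were kept. The share of all genes called was lower in both comparisons. Such a fit assumes that a lone pool varies like the other groups.

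Members near the limits of the rule were few. Just inside it were Ugt3a2 (r = 0.99, gap 0.68) and Cyp2c54 (r = 1.00, gap 0.80) by the gap, and Cyp4a12a (r = 0.904, gap 1.07) by r. Just outside were Cyp2e1, Cyp8b1 (r = 0.91, gap 0.36), Cyp4f14 (r = 0.93, gap 0.35) and Sult5a1 (r = 0.99, gap 0.25). Cyp8b1, which makes cholic acid in liver, had 6.31 in pool 1 of IL4R KO and 5.74 in pool 2 of WT, with at most 5.38 elsewhere.

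Members that follow Alb often lay beside each other in the genome. By gene order on GRCm38.p6, 12 of the 21 had a neighbouring member that also follows Alb, as did 10 of the 98 members with a position that do not. The Ugt2b and Cyp3a genes made up much of this. Neighbours also parted, as with Cyp2a12, which followed Alb while its neighbour Cyp2f2 did not, and with Cyp1a2 and Cyp1a1. Cyp1a2 had 6.97 in pool 1 of IL4R KO and 6.51 in pool 2 of WT against 4.94 to 5.46 elsewhere. Cyp1a1 at 9.55 to 11.16 was highest in both WT pools, of which only pool 2 was high in Alb. Closely related genes of such clusters can share probes, so their values are not independent.

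Several liver P450s and sulfotransferases differ by sex in mice, and the arrays differed in sex-linked transcripts. The Y-linked Eif2s3y had 8.95 and 8.49 in transgenic pools, 9.18 and 4.27 in IL4R KO pools, and 8.71 and 8.64 in WT pools, with IL4R KO pool 2 alone near the floor. Xist, also sex-linked, had 10.83 and 11.02 in transgenic pools, 7.93 and 11.40 in IL4R KO pools, and 10.49 and 10.08 in WT pools. Its lowest value was thus in IL4R KO pool 1, which is high in Alb. Among male-biased liver genes with a probe set, 3 of 6 followed Alb, which were Hsd3b5 and the members Cyp2d9 and Cyp4a12a. Cyp2d9, a testosterone hydroxylase, had 7.71 in pool 1 of IL4R KO and 6.61 in pool 2 of WT against 5.27 to 5.50 elsewhere, and Cyp4a12a, an arachidonic acid hydroxylase, had 6.89 and 6.84 against 4.70 to 5.77. Among female-biased liver genes 0 of 9 followed Alb. The members in that list, Cyp2b9, Cyp2b13, Cyp3a16, Cyp3a44, Cyp4a14, Cyp17a1, Sult2a2 and Sult3a1, all stayed between 2.86 and 6.03. With the Y-linked mean of each array as a covariate, 10 members passed in IL4R KO against WT lungs, 8 of the 9 among them. The share of all genes called rose as well, to 9.53% from 4.7% in the reported fit.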

How the data were processed

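Whole lung RNA of 6 pools, 2 a genotype, was hybridised to Affymetrix mouse GeneChips. The log2 values were deposited by the authors and made with RMA (background correction, quantile normalisation and probe summary), per the submitters' processing notes, and its version is not given in the sources used here. RMA compresses dim signals, so small differences near the floor are uncertain. Arrays have no read depth, and 2 pools a group limit the precision: p-values measure the spread between pools of 4 mice.

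Of 45101 probe sets, 64 controls were left out, 34945 carried 1 gene symbol in the platform annotation, 932 several and 9160 none. Where a gene had several single-symbol probe sets, the one brightest on average was used. The 3 group means of all 11860 tested genes were fitted jointly on the 6 arrays (limma 3.58.1, R 4.3.3), with a common spread (3 residual and 2.86 prior degrees of freedom), no covariate and Benjamini-Hochberg adjustment. The scripts were tested on simulated data. Summed levels of marker lists are log2 of summed linear values.

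Genes were named by rule. These were every member called in a comparison, or else the 5 with the lowest p, the 3 brightest of each class that do not follow Alb, the 10 widest gaps of those that do, Cyp2f2, Alb, members of the sex-biased liver lists, and from pathway lists the genes called or, where none was, the 2 with the lowest p. Cyp2e1, Cyp1b1, Cyp2s1, Cyp4f18, Ahr, the theta and kappa class transferases, P450s of steroid, retinoid and vitamin D pathways, Lep and members near the limits of the rule were added after their values were seen. The members and all lists were chosen with earlier results of these data known. Other filters, probe set rules, variance models, covariates, a replicate block and leaving out arrays were tried as alternatives. Promoter sequences and gene order came from RefSeq tables of GRCm38.p6.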

Additional observations from a re-analysis of the deposited data

Results flagged for a closer look

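A signal appeared in a probe set outside the comparisons because the annotation gives it several gene symbols, both of the Cyp2a subfamily of P450s. It had 11.59 and 11.19 in IL4R KO pools and 10.41 and 10.43 in WT pools, with 11.11 and 11.26 in IL4R KO + SMP8-IL4R pools. Both IL4R KO pools were above both WT pools, by 0.96 ± 0.14 (SE, limma over all probe sets, adjusted p = 0.0267). Which of its genes gave the signal cannot be told from 1 shared probe set. Of the 9 member probe sets with several symbols, 1 followed Alb.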

How the results depend on the processing

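Among the member differences recomputed under each alternative, 1 changed sign, that of Cyp2f2 between IL4R KO + SMP8-IL4R and IL4R KO lungs. It was -0.0442 in the reported fit and -0.12 to 0.0317 when single pools were left out, positive without IL4R KO + SMP8-IL4R pool 1, and it passed in none of these. For IL4R KO against WT lungs the count of 9 members became 4 with only the 4 arrays of both groups, 5 with every probe set tested on its own, and 1 to 12 when single pools were left out, the lowest without WT pool 1. The other alternatives gave 6 to 10. The share of all genes called ran from 0.927% without WT pool 1 to 12.7% without IL4R KO pool 1, beside 4.7% in the reported fit. IL4R KO + SMP8-IL4R against IL4R KO lungs held 0 members under all 17 alternatives, with 12 at an unadjusted p under 0.05 in the reported fit. Against WT lungs its count of 4 became 7 without both arrays high in Alb, and 1 to 6 when single pools were left out, the lowest again without WT pool 1. Members that follow Alb numbered 20 to 25 where 21 are reported. Where 1 pool of a group is left, it is assumed to vary like the other groups. Pool differences within genotypes, taken by replicate number, correlated at r = 0.121 (transgenic with IL4R KO), -0.0875 (transgenic with WT) and -0.509 (IL4R KO with WT). The arrays high in Alb have unlike replicate numbers in IL4R KO and WT, which enters the last value. These values therefore do not settle whether the numbers pair the pools. With the replicate block the counts were 6, 0 and 4, and Gsta3, Gstm1 and Fmo5 lost their call (adjusted p = 0.0711, 0.0589 and 0.0658). The Y-linked covariate averaged 3 genes, since Ddx3y had no probe set of its own. The causes of these changes were not tested. Dim members, 67 of 121, were not tested.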
